A study of Mus musculus with 22 samples.

Results

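Cerebellar granule cells were compared with 3 types of forebrain neuron by sequencing mRNA bound to tagged ribosomes (RiboTag). In this method Cre recombinase switches on an HA-tagged copy of the ribosomal protein RPL22 in 1 cell type, and the tagged ribosomes are pulled down with their mRNA, so the libraries describe the translatome. All mice were 6 weeks old and carried 1 floxed Rpl22 allele (Rpl22 Fl/+). Granule cells were tagged with Gabra6-Cre and taken from the cerebellum, dentate gyrus granule cells with Rbp4-Cre from the hippocampus, layer V cortical neurons with the same Rbp4-Cre from the cortex, and inhibitory interneurons with Dlx6a-Cre from the hippocampus, where each library pooled 2 mice. Of 22 libraries in the series, 12 entered the comparison: the 3 cerebellar granule cell libraries and 9 forebrain libraries, 3 of each type. The other 10 came from glia or were repeat sequencing of a library already used. Each type was defined by the promoter that drives Cre and by the dissected tissue, so comparing granule cells with any forebrain type also compares driver lines and brain regions. All 3 interneuron libraries were sequenced in batch 2 and the other 9 in batch 1, so batch and the interneuron group cannot be told apart within these 12. A different model (limma voom) added the batch 2 repeats of 1 library each of the other 3 types, batch as a term and replicates as a random effect. It called 2922 genes higher and 5541 lower than the forebrain mean, against 2879 and 5542 in the main fit of the 12 libraries. The 2 fits shared 2815 of the higher and 5321 of the lower calls.

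Cerebellar granule cells are small glutamatergic neurons that receive mossy fibre input and send parallel fibres to Purkinje cells. They descend from Atoh1-expressing progenitors of the rhombic lip, which multiply in response to Sonic hedgehog, whereas the forebrain neurons arise from telencephalic progenitors. Mature granule cells are known for a GABA-A receptor built with the α6 and δ subunits, for an NMDA receptor in which GluN2C replaces GluN2B, and for secreting cerebellin at the synapse onto Purkinje cells.

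The regulatory sequence next to the 3 marker genes of this cell type, Gabra6, Cbln3 and Zic1, is shown because these genes identify the cell type the libraries should hold. Each is the RefSeq promoter window in GRCm38.p6, 250 bases before to 50 bases after the annotated start, written 5′ to 3′ on the gene's minus strand: chr11:42321023-42321322 for Gabra6, chr14:55884207-55884506 for Cbln3 and chr9:91365719-91366018 for Zic1. Capitals mark the half-site of nuclear factor I (NFI), a transcription factor family known to bind the Gabra6 promoter in maturing granule neurons. The letters searched were TTGGCA on both strands, where the other strand reads TGCCAA.
Gabra6: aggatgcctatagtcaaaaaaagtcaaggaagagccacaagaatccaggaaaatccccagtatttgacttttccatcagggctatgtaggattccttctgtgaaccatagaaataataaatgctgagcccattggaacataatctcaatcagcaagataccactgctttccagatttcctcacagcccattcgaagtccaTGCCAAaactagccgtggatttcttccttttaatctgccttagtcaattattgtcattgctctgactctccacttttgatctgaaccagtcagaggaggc
Cbln3: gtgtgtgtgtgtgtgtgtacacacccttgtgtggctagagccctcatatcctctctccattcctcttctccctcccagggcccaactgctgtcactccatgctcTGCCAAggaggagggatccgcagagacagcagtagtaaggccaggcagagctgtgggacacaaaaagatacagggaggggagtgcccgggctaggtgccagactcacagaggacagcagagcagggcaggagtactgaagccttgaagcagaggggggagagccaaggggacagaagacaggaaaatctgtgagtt
Zic1: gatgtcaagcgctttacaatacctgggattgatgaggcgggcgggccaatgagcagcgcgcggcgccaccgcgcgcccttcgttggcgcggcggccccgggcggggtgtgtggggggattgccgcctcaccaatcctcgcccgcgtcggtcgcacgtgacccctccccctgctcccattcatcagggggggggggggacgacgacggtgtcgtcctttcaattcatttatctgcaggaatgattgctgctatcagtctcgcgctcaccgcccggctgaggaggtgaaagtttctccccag
The Gabra6 window held 1 half-site, starting at base 201 from its 5′ end, and the Cbln3 window held 1, starting at base 105. The Zic1 window held none. Of 27025 promoters of that length, 14.4% held the half-site, against 129 of the 916 matched promoters (14.1%) of coding genes higher in granule cells than in each forebrain type. The half-site was thus about as frequent beside the genes of granule cells as beside all genes. Of the NFI genes listed, Nfia was higher in granule cells than in the forebrain mean by 3.38 on the log2 scale (adjusted p = 1.1e-16), Nfix by 1.49 (adjusted p = 2.5e-14) and Nfib by 1.05 (adjusted p = 1.4e-11). In TPM, a level per transcript length scaled to one total in every library, Nfib was nevertheless at 149 TPM in granule cells and 164 TPM in dentate gyrus granule cells.

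The granule cell libraries held 48481047 to 66185898 estimated counts and the forebrain libraries 38270477 to 65977155. Across 18587 genes tested, the log2 levels of granule cell libraries correlated among themselves at r = 0.990 to 0.991. They correlated with the forebrain libraries at 0.824 to 0.843, while libraries of different forebrain types correlated with each other at 0.906 to 0.936. These correlations are over genes, which are not independent replicates, and are given as a description. Nothing in the labels says that replicate numbers pair the libraries of different types.

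To ask which genes set granule cells apart, each gene's log2 level was compared with the mean of the 3 forebrain types, and then with each type alone. A gene was called where the adjusted p was at most 0.05 and the difference at least 2-fold. Against the forebrain mean, 2879 genes were higher in granule cells (15.5% of those tested) and 5542 were lower (29.8%). Against each of the 3 types at once, 1500 genes were higher (8.07%) and 3740 were lower (20.1%). Without the 2-fold requirement 83.8% of all genes passed. The median log2 difference over all genes was -0.14. As in any bulk sample, fewer cells of a type and less RNA per cell cannot be told apart in these values.

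Among the genes kept by the low-count filter, the lower genes were more numerous and further apart, while the higher genes were more abundant. Of the genes called against each type, 435 were higher by at least 8-fold and 95 by at least 64-fold, compared with 2400 and 790 that were lower. The 1500 higher genes together held 12.5% ± 0.12 (SD, n = 3) of TPM in granule cells and 2.36% to 2.87% in the forebrain types. The 3740 lower genes held 1.5% ± 0.068 of TPM in granule cells and 10.6% to 12.3% in the forebrain. The median level in the higher group was 24.3 CPM (counts scaled to library size, not to length) for the higher genes and 2.56 CPM for the lower ones. A gene could pass the filter through any of the 3 forebrain types but only 1 granule cell type. The median log2 difference over all genes was -0.56 with no filter and -0.14 in the main fit. It was -0.02 under a filter of at least 1 CPM in 9 libraries, which genes present only in granule cells cannot pass. The part of the filter in the asymmetry was not tested. Among coding genes, median transcript length was 3300 bases for the higher set, 2582 for the lower set and 2644 over all coding genes tested. The forebrain mean is taken over log2 levels, so a gene can be called against it without being called against each type. This held for 1379 of the higher and 1802 of the lower calls. Over all genes tested, 290 were called higher than in 1 type and lower than in another. Of these, 39 were called against the mean.

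**Figure D1:**
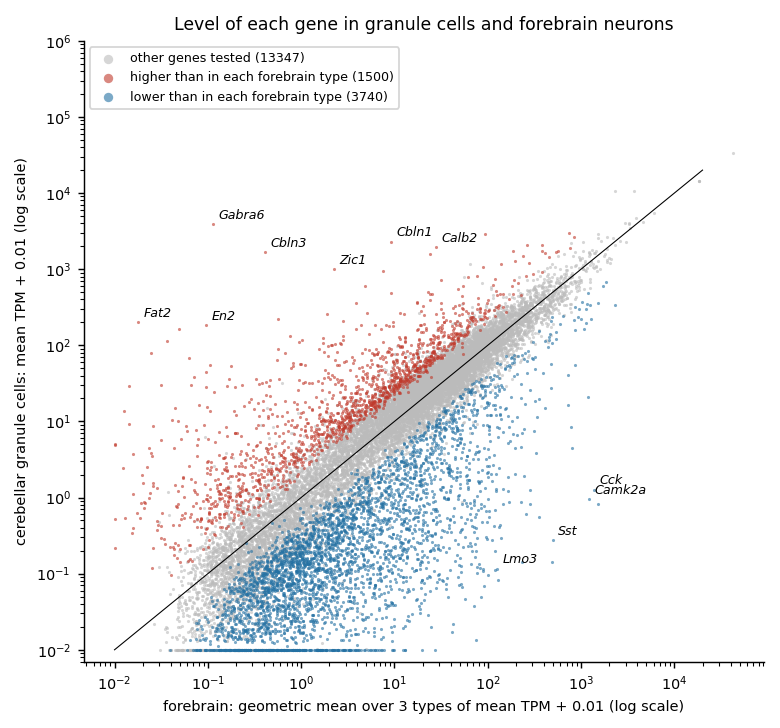
Mean TPM of each gene in cerebellar granule cells (vertical axis, log scale) against the geometric mean over the 3 forebrain types (horizontal axis, log scale), with 0.01 added to both; each point is a gene and the line marks equal levels. The 1500 genes higher than in each type (red) reach 3895 TPM for Gabra6 and 2281 TPM for Cbln1, and the 3740 lower genes (blue) spread further from the line.

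The markers that define the cell type were present at high level in every granule cell library. Gabra6 encodes the GABA-A receptor α6 subunit, and its promoter drives the Cre used to tag these cells. Gabra6 stood at 3246, 3256 and 3342 CPM in the granule cell libraries and at 0.0188 to 0.333 CPM in the 9 forebrain libraries (log2 difference 15.10 ± 0.099 approximate SE, adjusted p = 4.4e-18). Cbln3, a cerebellin of granule cells, stood at 3966, 4026 and 3991 CPM against 0.546 to 1.46 CPM (12.00 ± 0.053, adjusted p = 1.1e-19). The granule cell libraries lay far above all forebrain libraries for both. Zic1, a zinc finger transcription factor of the granule lineage, stood at 2504, 2489 and 2438 CPM. It was at 1.11 to 2.27 CPM in the dentate gyrus and layer V libraries but at 79.3, 61.3 and 4.42 CPM in interneuron replicates 1, 2 and 3, so the interneuron libraries differed widely among themselves (log2 difference from the forebrain mean 8.93 ± 0.504, adjusted p = 1.3e-09; from interneurons alone 5.67, adjusted p = 4e-06). In GRCm38 the genes lie at chr11:42306437-42321072 (Gabra6), chr14:55878913-55884392 (Cbln3) and chr9:91358058-91365810 (Zic1), all on the minus strand.

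Genes were named by size among 554 coding genes that were higher than in each type, did not overlap and reached 50 CPM. The 12 largest differences included the 3 markers and 5 homeobox genes. Fat2, a giant protocadherin, came second: it was at 1534, 1518 and 1646 CPM in granule cells and at 0 to 0.197 CPM in the forebrain (14.61 ± 0.125, adjusted p = 2.9e-17). En2, a homeobox gene of the midbrain-hindbrain territory, was at 343, 342 and 319 CPM against 0.0757 to 0.373 CPM (11.04 ± 0.07). The Bar-class homeobox genes Barhl2 and Barhl1 were at 125 to 130 CPM and 48.8 to 54.3 CPM in granule cells; pooled over the 9 forebrain libraries Barhl2 had 20 counts and Barhl1 had 8, giving ratios of 3120 (95% Poisson interval 2020 to 5110) and 3140 (1590 to 7270). Cnpy1, which modulates FGF signalling at the midbrain-hindbrain boundary, had 8 forebrain counts and a ratio of 5210 (2640 to 12100). Uncx (97.4, 105 and 102 CPM) and the LIM homeobox gene Lhx1 (56.1, 56.2 and 56.8 CPM) were also among the 12. For Lhx1, interneuron replicate 2 held 0.668 CPM while the other forebrain libraries held at most 0.0563 CPM.

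Other genes of the 12 are better known outside the cerebellum. Crtam, an immunoglobulin-family receptor described on T cells, was at 237, 241 and 249 CPM in granule cells and at most 0.197 CPM in the forebrain (11.93 ± 0.091, adjusted p = 1.3e-17). Mybpc3, which encodes cardiac myosin-binding protein C, was at 119, 120 and 119 CPM against 0 to 1.18 CPM (9.22 ± 0.135, adjusted p = 1.7e-15). Both were uniform across the granule cell libraries.

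At the other end, 530 genes met the same conditions downwards. Among the 12 with the largest reductions, Lmo3, a LIM-only cofactor, was at 56.6 to 252 CPM in the forebrain and at 0.0608 to 0.0989 CPM in granule cells (-10.71 ± 0.107).

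Ddn (dendrin, a protein of dendrites) was at 0.203 to 0.289 CPM in granule cells and 338 to 3495 CPM in the forebrain (-12.07 ± 0.096, adjusted p = 1.8e-17). Nrgn (neurogranin, which binds calmodulin in spines) was at 0.742, 0.423 and 0.791 CPM against 123 to 4449 CPM (-10.73 ± 0.144). Chrm1 (the M1 muscarinic receptor) was at 0.0659 to 0.0891 CPM against 90.8 to 465 CPM, and Gda (guanine deaminase) at 0 to 0.148 CPM against 125 to 466 CPM. The electrically silent potassium channel subunit Kcnf1 had 5 counts over the granule cell libraries (ratio 4730, interval 2030 to 14600), Myo5b had 5 (2640, 1130 to 8120) and Cpne4 had 7 (2140, 1040 to 5310). Rtn4rl2, a Nogo-receptor relative, had 1 count (9460, 1700 to 374000). For C1ql2 and Sst, also among the 12, 1 forebrain type stood far above the others: C1ql2 was at 476 to 578 CPM in dentate gyrus granule cells and 2.8 to 17.4 CPM in the other forebrain libraries, and Sst (somatostatin) at 1322 to 1567 CPM in interneurons and 13.6 to 92 CPM in the others.

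**Figure D2:**
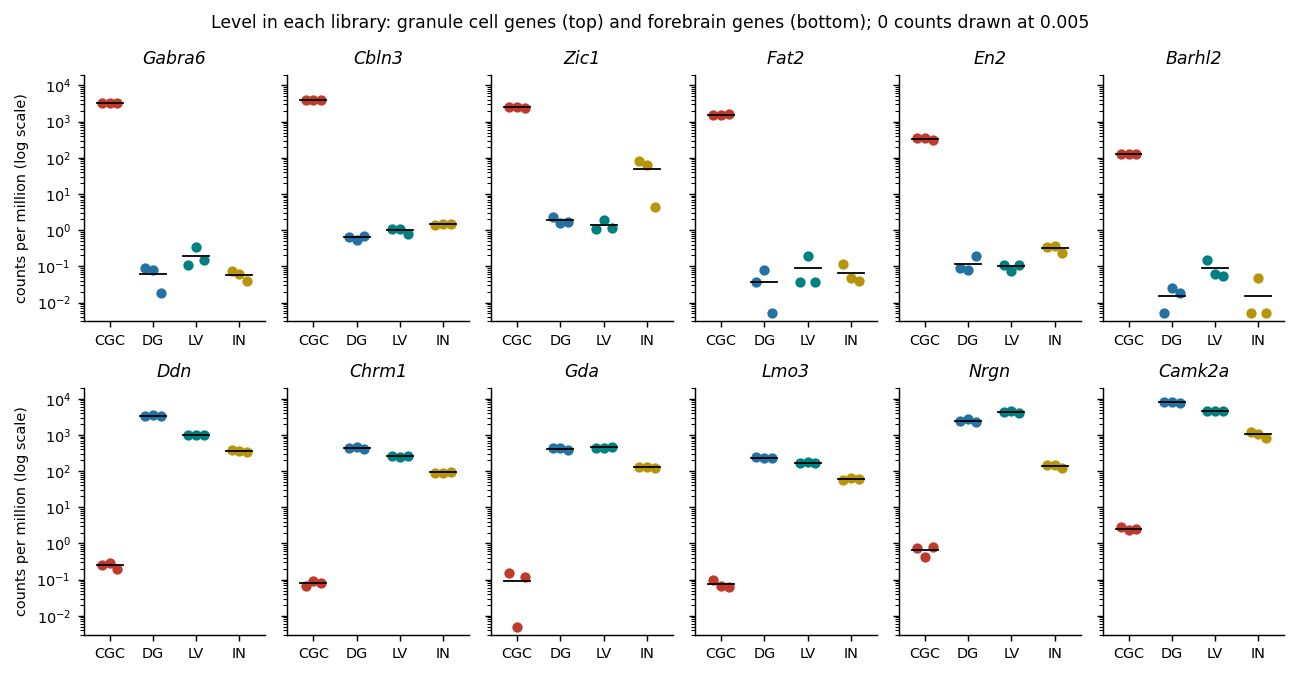
CPM in each of the 3 libraries of cerebellar granule cells (CGC), dentate gyrus granule cells (DG), layer V cortical neurons (LV) and inhibitory interneurons (IN), on a log axis; points are libraries, lines are means, and 0 counts are drawn at 0.005. The granule cell libraries lie above all forebrain libraries for the 6 genes of the top row and below them for the 6 of the bottom row, and Zic1 spreads from 4.42 to 79.3 CPM among the interneuron libraries.

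Transcription factors of the hindbrain and granule lineage were largely higher in granule cells. Of 30 tested, 25 were higher (83.3%) and 3 lower (10%) than the forebrain mean, against 15.5% and 29.8% of all genes. The median log2 difference was 5.53, against -0.14 over all genes, and 20 were higher than in each type. The list was chosen with earlier results of these data known, so these values are a description. Under a filter of at least 1 CPM in 9 libraries, which a gene present only in granule cells cannot pass, 8 were called higher. By mean TPM the most abundant in granule cells were Zic1 (1004), Neurod1 (938), Etv1 (728) and Zic2 (604). Pax6, which is needed in the rhombic lip, was at 258 TPM in granule cells and 1.07 to 3.34 TPM in the forebrain types. All 5 Zic genes were called. Atoh1, the progenitor factor, had a mean of 0 TPM in each of these 4 cell types and was not tested. The 3 lower members were Meis2 (0.111 to 0.528 CPM in granule cells, 7.64 to 79.8 CPM in the forebrain, -6.62 ± 0.53), Lhx9 and Insm1, whereas the related Meis1 was higher (64.9 TPM against 0.272 to 1.62 TPM). Eomes, a marker of unipolar brush cells, was at 56.9 to 68.7 CPM in granule cells and at most 1.34 CPM in the forebrain, a value reached in 1 layer V library.

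Forebrain transcription factors moved the other way, with exceptions. Of 47 tested, 33 were lower (70.2%) and 5 higher (10.6%) than the forebrain mean, against 29.8% and 15.5% of all genes. The median was -3.90, and 28 were lower than in each type. Fezf2, which specifies subcortically projecting neurons, had no counts in granule cells and 109 to 111 CPM in layer V; against a floor of 3 counts over the granule cell group the forebrain mean was at least 2200-fold higher. Dlx2, a determinant of interneurons, had no counts either and was at least 1220-fold higher in the forebrain mean, with interneurons at 66.6 to 72.4 CPM. Bcl11b was at 0.365 to 0.579 CPM against 79.4 to 538 CPM. Zbtb18, a zinc finger repressor, was higher in granule cells than in each type at 1958, 1870 and 1789 CPM, against 444 to 706 CPM in the excitatory types and 56.9 to 63 CPM in interneurons (2.82 ± 0.036). Cux1 was also higher than in each type (259 to 267 CPM against 24.9 to 76.9 CPM, 2.54 ± 0.06). Neurod2 and Prox1 were called against the mean only: both were higher in dentate gyrus granule cells than in cerebellar granule cells (516 to 640 CPM against 427 to 477 CPM for Neurod2, 494 to 598 CPM against 97.8 to 106 CPM for Prox1). Without the interneurons, the Neurod2 difference was 0.30 and was no longer called.

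Of 17 GABA-A receptor genes tested, 5 were higher (29.4%) and 8 lower (47.1%) than the forebrain mean, against 15.5% and 29.8% of all genes. Against each type, 2 were higher and 8 lower. Gabra6 at 3895 TPM was the most abundant subunit of granule cells, while Gabrd was at 354 TPM and Gabrb2 at 228 TPM. Gabrd, the δ subunit of extrasynaptic receptors, was at 365, 353 and 339 CPM in granule cells and 46.7 to 62.8 CPM in the forebrain (2.70 ± 0.042, adjusted p = 3.1e-15). Gabrb2 was at 375 to 394 CPM against 61.4 to 207 CPM (1.68 ± 0.038). Of the α subunit genes, 4 were lower: Gabra5, typical of hippocampal extrasynaptic receptors, was at 0.134 to 0.214 CPM against 29 to 187 CPM (-8.67 ± 0.117), Gabra2 at 1.3 to 1.7 CPM against 96.9 to 198 CPM (-6.51 ± 0.104), Gabra3 at 0.912 to 1.24 CPM against 15.9 to 126 CPM (-5.86 ± 0.152) and Gabra4 at 1.52 TPM against 40.3 to 116 TPM. Gabrg3 had 7 counts in the granule cell libraries.

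Ionotropic glutamate receptors were called in both directions within each family. Of 18 tested, 5 were higher (27.8%) and 11 lower (61.1%) than the forebrain mean, against 15.5% and 29.8% of all genes. Against each type, 3 were higher and 9 lower. Among NMDA receptor genes the obligatory subunit Grin1 was at 256 TPM in granule cells and 248 to 279 TPM in the forebrain types (log2 difference -0.05, adjusted p = 0.17). Grin2c was at 328, 314 and 298 CPM in granule cells and 1.85 to 7.97 CPM in the forebrain (5.98 ± 0.191, adjusted p = 3.3e-12), whereas Grin2b was at 2.29, 1.92 and 2.37 CPM against 379 to 952 CPM (-8.01 ± 0.115, adjusted p = 1.5e-15). The groups did not overlap for either gene. Grin3a was also lower (-6.04 ± 0.114). Astrocytes in the same series held Grin2c at 141 TPM, above the 108 TPM of granule cells.

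Among AMPA receptor genes, Gria1 was at 9.85 to 10.2 CPM in granule cells and 250 to 1626 CPM in the forebrain (-6.39 ± 0.069, adjusted p = 1.3e-16), and Gria3 was lower by a similar amount (-5.67). Gria2, whose edited subunit makes the channel impermeable to calcium, was at 68.5 TPM against 141 to 456 TPM (-1.79). Gria4 was the most abundant AMPA receptor gene of granule cells at 195 TPM, and it was at 281 to 308 CPM there, 15.2 to 19.1 CPM in dentate gyrus, 65.8 to 72.4 CPM in layer V and 221 to 237 CPM in interneurons (2.21 ± 0.052). Its level in interneurons was thus close to that in granule cells. Of the kainate receptor genes, Grik2 was higher than in each type (144 to 160 CPM against 30.7 to 80.1 CPM). Grid1, a delta receptor, was lower (0.486 to 0.758 CPM against 70.5 to 119 CPM, -7.20 ± 0.102).

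Of 9 metabotropic glutamate and GABA-B receptor genes tested, 2 were higher (22.2%) and 5 lower (55.6%), against 15.5% and 29.8% of all genes. Grm4, the presynaptic receptor of parallel fibres, was at 1331, 1316 and 1307 CPM in granule cells and 5.38 to 44 CPM in the forebrain (5.78 ± 0.123, adjusted p = 5.7e-14). Grm2, Grm3, Grm5, Grm7 and Grm8 were lower, with log2 differences of -7.17, -4.83, -6.34, -6.64 and -6.46. Both GABA-B receptor subunits, Gabbr1 and Gabbr2, differed by under 2-fold (-0.50 and -0.56).

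Of 14 genes for AMPA receptor auxiliary proteins 9 were lower (64.3%, against 29.8% of all genes), 8 of them lower than in each type. The other 5 were not called, and the median was -3.79. Cacng3 was at 0.122 to 0.148 CPM in granule cells against 73.2 to 177 CPM (-9.55 ± 0.089, adjusted p = 6e-17), Cnih3 at 0.134 to 0.264 CPM against 30.8 to 172 CPM (-8.85 ± 0.153) and Shisa9 at 0.77 to 1.1 CPM against 55.5 to 169 CPM (-6.75 ± 0.105). Shisa7 had a log2 difference of -5.03. Cacng2, which encodes stargazin and is needed for AMPA receptor traffic in granule cells, was not called (0.11); it stood at 65.6 TPM in granule cells and 27.8 to 140 TPM in the forebrain types.

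**Figure D3:**
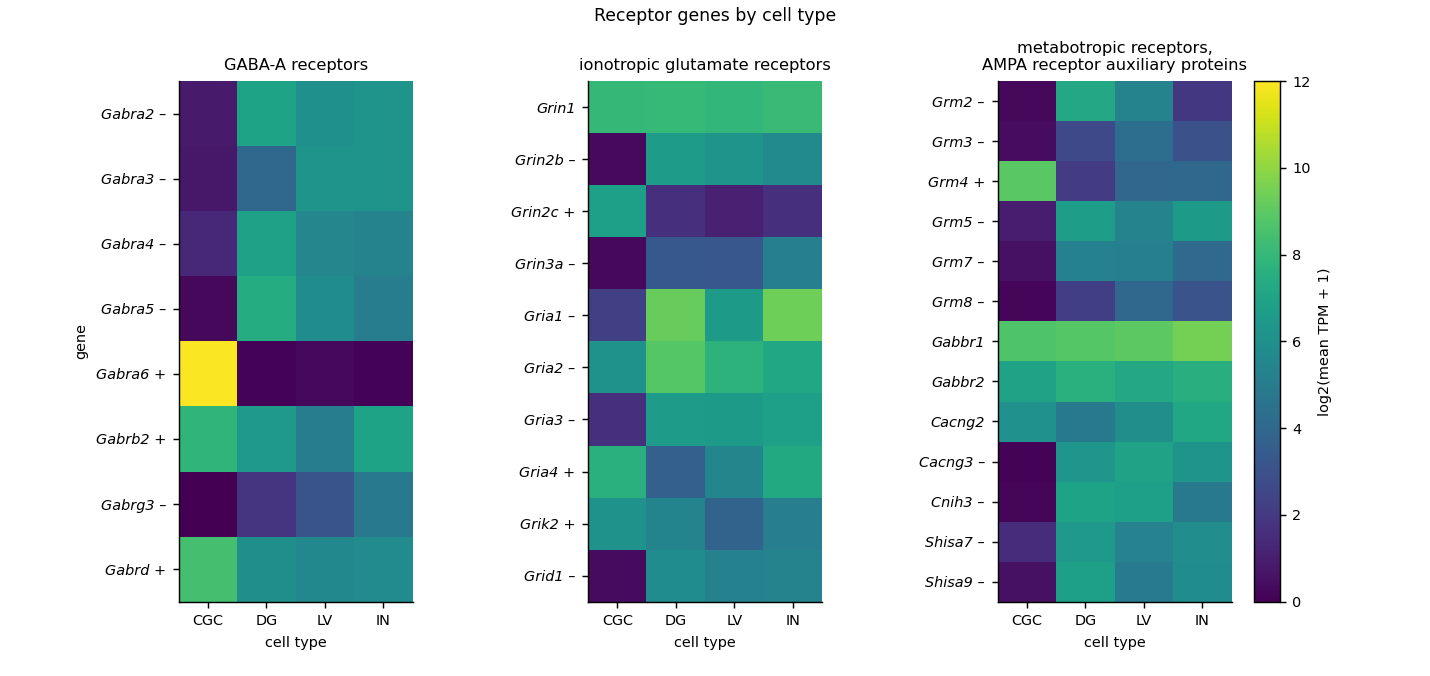
Mean level of receptor genes, as log2(TPM + 1) on the colour scale, in cerebellar granule cells (CGC), dentate gyrus granule cells (DG), layer V cortical neurons (LV) and inhibitory interneurons (IN); each row is a tested gene that the text names, + marks genes higher and – genes lower in granule cells than in the forebrain mean. Gabra6 is high in granule cells alone of the 4 types, Grin2c and Grin2b exchange places, and Cacng3 and Cnih3 are dark in granule cells.

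Of 38 genes for cerebellins and synaptic organisers, 7 were higher (18.4%) and 15 lower (39.5%), with 16 not called, near the 15.5% and 29.8% of all genes. Cbln1, a secreted cerebellin that binds presynaptic neurexin, was at 2246, 2164 and 2125 CPM in granule cells and 1.6 to 31.3 CPM in the forebrain (7.99 ± 0.189, adjusted p = 1.7e-13). Cbln4 was lower, with 5 counts in the granule cell libraries and 58.5 to 69.1 CPM in interneurons. The related C1ql3 was at 0.0824 to 0.178 CPM in granule cells, at 265 to 610 CPM in the excitatory forebrain types and at 7.88 to 11.1 CPM in interneurons. Slitrk4 was higher (158 to 170 CPM against 22.6 to 53.5 CPM, 2.11 ± 0.046) and Lrfn2 lower (-7.66 ± 0.11).

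Voltage-gated sodium channel genes and their partners were called in both directions, 4 higher (25%) and 8 lower (50%) of 16. The shares of all genes were 15.5% and 29.8%. Scn2a was at 901 to 989 CPM in granule cells and 192 to 358 CPM in the forebrain (1.76 ± 0.038, adjusted p = 6.7e-14). Scn2b, a β subunit, was at 983 to 1033 CPM against 342 to 495 CPM (1.31 ± 0.031), and Fgf14, an intracellular partner of the channels, at 103 to 143 CPM against 21.3 to 41.3 CPM (1.92 ± 0.075). Scn3b was at 1.18 to 1.33 CPM against 96.8 to 436 CPM (-7.19 ± 0.067) and Scn3a at 0 to 0.243 CPM against 18.3 to 89 CPM (-8.13 ± 0.241).

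Of 17 calcium channel genes, 5 were higher (29.4%) and 7 lower (41.2%), against 15.5% and 29.8% of all genes. Cacna1a, the pore of P/Q-type channels, was at 605, 596 and 633 CPM in granule cells and 115 to 164 CPM in the forebrain (2.13 ± 0.042, adjusted p = 2.7e-14), and its β4 subunit Cacnb4 at 624 to 665 CPM against 101 to 245 CPM (1.82 ± 0.051). Cacna1h, a T-type channel, was at 0.134 to 0.33 CPM against 26.1 to 297 CPM (-8.14 ± 0.134). Cacnb1 and Cacnb2 had log2 differences of -2.58 and -4.01. Of 4 HCN channel genes, Hcn2, Hcn3 and Hcn4 were lower than the mean (-1.09, -2.08 and -1.69) without being lower than in each type. Without the interneurons Hcn2 was no longer called (-0.64).

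Potassium channels were the largest list, with 82 tested. Of these, 12 were higher (14.6%) and 51 lower (62.2%) than the forebrain mean, against 15.5% and 29.8% of all genes. Against each type 9 were higher and 35 lower, and the median was -1.96. Kcnj12, an inward rectifier, was at 212 to 220 CPM against 3.2 to 22.3 CPM (4.19 ± 0.091, adjusted p = 7.4e-14). The leak channels Kcnk10 and Kcnk3 were at 84 to 90.6 CPM against 3.19 to 10.9 CPM and at 264 to 292 CPM against 10.5 to 59 CPM. Kcnd2, an A-type channel, was at 716 to 775 CPM against 62.1 to 215 CPM (2.76 ± 0.046). Among the lower members, the silent subunits Kcnf1, Kcnv1 and Kcng1 had 5, 2 and 5 counts over the granule cell libraries while the forebrain libraries held 36.5 to 316, 4.61 to 109 and 3.87 to 167 CPM. Kcnj4 was at 0 to 0.156 CPM against 32.3 to 209 CPM (-10.57 ± 0.28).

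Of 49 calcium sensors and kinases tested, 10 were higher (20.4%) and 18 lower (36.7%), shares near those of all genes (15.5% and 29.8%). Camk2a, the α subunit of CaM kinase II and among the most abundant genes of forebrain excitatory neurons, was at 2.77, 2.29 and 2.53 CPM in granule cells, 7679 to 8088 CPM in dentate gyrus, 4471 to 4493 CPM in layer V and 813 to 1203 CPM in interneurons (-10.35 ± 0.159, adjusted p = 2.6e-15). Camk2d was higher (513 to 542 CPM against 28.8 to 162 CPM, 2.64 ± 0.126), and Camk2b was not called (0.41; 775 TPM in granule cells and 281 to 1647 TPM in the forebrain types). Camk4, which phosphorylates CREB in the nucleus, was at 470 to 576 CPM against 17.3 to 58 CPM (4.20 ± 0.074, adjusted p = 8.6e-15). Calb2 (calretinin) was at 1287, 1310 and 1300 CPM against 1.35 to 73 CPM (6.21 ± 0.348), whereas Hpca (hippocalcin) was at 4.91 to 6 CPM against 213 to 1047 CPM (-6.64 ± 0.082). Dentate gyrus replicate 2 held 14.8 CPM of Calb2 and its fellow libraries 1.35 and 3.07 CPM.

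Genes of vesicle release and transmitter transport were called in both directions, 17 higher (32.1%) and 14 lower (26.4%) of 53, with a median of 0.16. The shares of all genes were 15.5% and 29.8%. Unc13c, a priming factor abundant in cerebellar granule cells, was at 311, 287 and 304 CPM against 4.42 to 17 CPM (5.06 ± 0.168, adjusted p = 5e-12). Syt2, a fast calcium sensor, was at 1204 to 1264 CPM against 3.12 to 20.2 CPM in dentate gyrus, 59.9 to 61.4 CPM in layer V and 274 to 285 CPM in interneurons (4.50 ± 0.279). Syt12 and Rims3 were higher than in each type (3.32 and 2.83). Stx1a, a syntaxin of the release complex, was at 2.76 to 3.12 CPM against 63.3 to 622 CPM (-5.66 ± 0.152). Syt17 and Rab3b had log2 differences of -9.19 and -8.27. The transporters and enzymes of GABA release were low: Gad1, which makes GABA, stood at 5.9 to 6.92 CPM in granule cells, 22.2 to 198 CPM in the excitatory forebrain types and 2606 to 2711 CPM in interneurons.

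Neuropeptide precursors were mostly reduced, 19 lower (70.4%) and 5 higher (18.5%) of 27, with a median of -5.89. The shares of all genes were 29.8% and 15.5%. Cck (cholecystokinin) was at 0.312 to 0.446 CPM in granule cells and 167 to 790 CPM in every forebrain library (-10.03 ± 0.197, adjusted p = 2.6e-14). Grp and Trh had no counts in granule cells; the forebrain mean was at least 583-fold and at least 655-fold higher. Chgb, which encodes the granule protein chromogranin B, was an exception at 2038, 2124 and 2115 CPM against 337 to 654 CPM (2.13 ± 0.068, adjusted p = 3.3e-12). Bdnf was called higher than the mean (1.06 ± 0.051) at 33.8 to 35.5 CPM, yet it was higher in dentate gyrus (64.3 to 66.5 CPM) and layer V (48.8 to 52 CPM) and low in interneurons (1.22 to 1.65 CPM). Without the interneurons its difference turned to -0.69, and 3 precursors were higher.

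Immediate early genes, which neurons switch on with activity, did not move together. Of 21 tested, 5 were higher (23.8%, 3 genes without the interneurons) and 10 lower (47.6%), against 15.5% and 29.8% of all genes. Ier2 (22.6 to 24.9 CPM against 2.24 to 7.86 CPM, 2.39 ± 0.099) and Dusp1 (46.7, 54.8 and 87.2 CPM against 2.78 to 29.1 CPM, 2.15 ± 0.18) were higher than in each type. Nptx2, Egr3 and Fosb had log2 differences of -8.81, -7.51 and -5.18, with Egr3 at 0.363 to 0.646 CPM in granule cells and 15 to 301 CPM in the forebrain.

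Axon guidance genes were lower in 31 (57.4%) and higher in 12 (22.2%) of 54 cases, with a median of -1.66. The shares of all genes were 29.8% and 15.5%. Slit1, a repellent ligand, was at 0.0203 to 0.148 CPM in granule cells against 43.4 to 476 CPM (-10.44 ± 0.251, adjusted p = 1.9e-13), and Slit2, Ephb6 and Efna3 had log2 differences of -7.86, -7.92 and -7.41. The netrin Ntn4 (65.8 to 71 CPM against 0.545 to 17.7 CPM, 4.24 ± 0.085) and the netrin receptor Unc5b (158 to 162 CPM against 4.48 to 69.2 CPM, 3.78 ± 0.044) were higher. Plxnb2, a semaphorin receptor with a known role in granule cell migration, was at 212 to 219 CPM against 20.1 to 54.9 CPM (2.89 ± 0.037, adjusted p = 4.7e-16).

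Contactins and classical cadherins were divided, 10 higher (32.3%) and 11 lower (35.5%) of 31, against 15.5% and 29.8% of all genes. Cdh15 (M-cadherin, known from muscle) was at 137 to 144 CPM in granule cells and 1.64 to 8.24 CPM in the forebrain (5.22 ± 0.095, adjusted p = 1.3e-14). Cdh7 and Cntn6 were higher by 4.10 and 3.48, and Cntn2, the axonal contactin TAG-1, by 3.20 (607 to 614 CPM against 17.4 to 175 CPM). Cdh9, Cdh11 and Cdh12 had log2 differences of -9.40, -7.25 and -7.02. Clustered protocadherins were called higher in 19 (33.9%) and lower in 2 (3.57%) of 56 cases. Genes of the α and γ clusters share 3′ exons within their cluster, so their estimated counts are uncertain. The 2 lower members were Pcdhgc5 (2 to 2.72 CPM against 34.2 to 273 CPM, -5.53 ± 0.117) and Pcdhgc4 (-2.03 ± 0.146), and their cluster neighbour Pcdhgc3 was the most increased (252 to 276 CPM against 9.84 to 50.3 CPM, 3.25 ± 0.037).

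Of 13 Hedgehog pathway genes, which act in granule cell progenitors, 3 were higher (23.1%) and 6 lower (46.2%). The shares of all genes were 15.5% and 29.8%. The higher members were membrane proteins that bind the ligand. Boc was at 143 to 154 CPM in granule cells against 2.21 to 20.3 CPM (4.40 ± 0.036, adjusted p = 2.3e-17), the receptor Ptch1 at 179 to 182 CPM against 17.4 to 43.8 CPM (2.72 ± 0.049) and Cdon at 30.5 to 33.2 CPM against 2.89 to 17.4 CPM (2.44 ± 0.058). Smo, the signal transducer, was at 0.318 TPM in granule cells and 0.646 to 10.8 TPM in the forebrain types, and Gli1, a target of the pathway, was at 0.163 TPM and was not called.

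The series concerns tRNA expression in brain cell types, so genes of ribosome rescue and tRNA charging were examined. Of 22 genes for ribosome rescue and stress signalling, 5 were higher in granule cells (22.7%, against 15.5% of all genes). The other 17 were not called, and the median was 0.52. Gtpbp1, a translational GTPase that resolves stalled ribosomes, was at 187 to 194 CPM against 56.3 to 113 CPM (1.32 ± 0.036, adjusted p = 6.8e-13). Eif2ak3, which encodes the stress kinase PERK, was the only one higher than in each type (68.1 to 76.6 CPM against 21.2 to 30.4 CPM, 1.53 ± 0.042). Gtpbp2 was under the 2-fold limit (0.80), at 51.3 TPM in granule cells and 21.8 to 38.7 TPM in the forebrain types, and Atf4, the effector of the integrated stress response, did not differ detectably (0.01). Of 23 aminoacyl-tRNA synthetase genes, Eprs (1.11 ± 0.035) and Vars (1.14 ± 0.051) were higher and 21 were not called. The higher share was 8.7%, under the 15.5% of all genes.

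**Figure D4:**
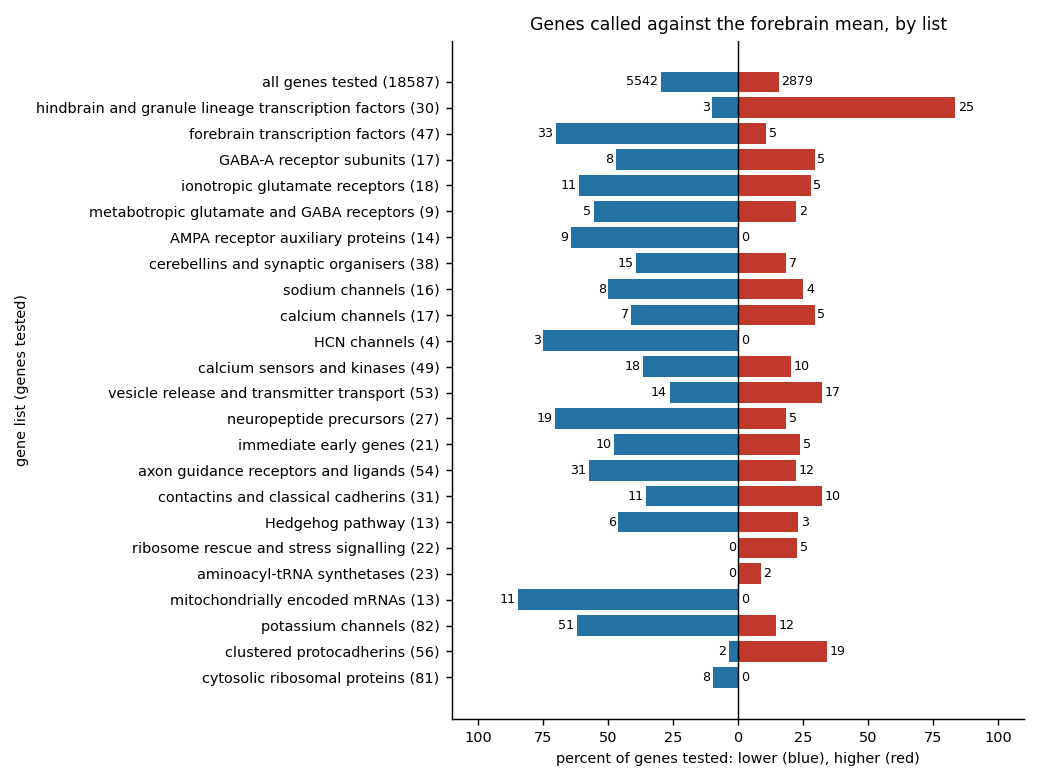
Percent of the genes tested in each list that were called lower (blue, to the left) or higher (red, to the right) in granule cells than in the forebrain mean; numbers at the bars are gene counts, numbers in brackets are the genes tested, and the top bar is all 18587 genes. The lists drawn leave out the cell type markers; among them, hindbrain transcription factors extend furthest to the right (25 of 30) and mitochondrially encoded mRNAs furthest to the left (11 of 13).

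By mean TPM, the most abundant genes among those higher than in each type included Gabra6 (3895), Tubb4a (2945), Nrep (2936), Clip3 (2662) and Cbln1 (2281). Tubb4a, a β-tubulin, was at 3542 to 3754 CPM in granule cells, 355 to 471 CPM in dentate gyrus granule cells and 1099 to 1567 CPM in the other forebrain types (2.02 ± 0.058). Nrep, a neuronal regeneration-related protein, was at 2384 to 2476 CPM against 58.9 to 95.5 CPM (4.97 ± 0.055, adjusted p = 1.5e-16). Clip3, a microtubule-associated linker, was higher by 1.61. The most abundant lower genes in the forebrain were Nrgn, Camk2a, Sst, the actin-binding peptide gene Tmsb4x (72.5 to 76.5 CPM in granule cells against 352 to 650 CPM), Ndrg4 (947 to 1029 CPM against 2035 to 3644 CPM) and the cytoskeletal actin gene Actg1 (529 to 555 CPM against 1383 to 1712 CPM).

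Messenger RNAs encoded by the mitochondrial genome took a smaller share of granule cell libraries. They made up 0.224% ± 0.026 of TPM in granule cells (SD, n = 3), 1.032% ± 0.3 in dentate gyrus granule cells, 0.509% ± 0.071 in layer V neurons and 0.888% ± 0.19 in interneurons. The granule cell libraries (0.198% to 0.251%) did not overlap with the forebrain libraries (0.434% to 1.36%), and the difference from the forebrain mean was -0.586 percentage points (exact permutation test over 220 splits, two-sided p = 0.014). Of 13 such genes 11 were called lower (84.6%, against 29.8% of all genes). Among them were mt-Cytb (44 to 53.4 CPM against 133 to 393 CPM, -2.14 ± 0.181) and mt-Nd1 (57 to 72.9 CPM against 178 to 399 CPM, -1.97 ± 0.165). Such mRNA is translated by mitochondrial ribosomes, which do not carry the tagged RPL22. Oligodendrocyte, microglial and vascular markers moved with it, as given further on, and their part in the result was not tested.

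Cytosolic ribosomal protein genes were also less abundant in sum, at 20800 to 21500 TPM in granule cells and 28940 to 38160 TPM in the forebrain libraries. Of 81 tested, 8 were lower by at least 2-fold (9.88%, under the 29.8% of all genes), 73 were not called and the median was -0.63. Rpl41 was at 47.1 to 48.2 CPM against 81.8 to 173 CPM (-1.28 ± 0.053) and Rplp1 at 51.4 to 56.1 CPM against 101 to 166 CPM (-1.26 ± 0.049). Without the interneurons, 15 were lower.

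Markers of other cell types were examined because the pull-down can carry their RNA. Summed over 9 genes, oligodendrocyte markers were at 125 to 152 TPM in granule cells, 236 to 429 TPM in the excitatory forebrain types and 3169 to 3401 TPM in interneurons, and 8 were called lower. Mog was at 0.626 to 0.872 CPM in granule cells. Endothelial and pericyte markers summed to 5.36 to 10.7 TPM against 23.5 to 60.3 TPM, with 8 of 9 lower (88.9%). Microglial markers summed to 9.41 to 11.5 TPM against 22.2 to 40.6 TPM, with 7 of 8 lower (87.5%). Over all genes, 29.8% were lower. Astrocyte and Bergmann glia markers summed to 159 to 194 TPM against 118 to 290 TPM and overlapped; 7 of 10 were lower, while Aldoc was called higher than the mean at 116 to 144 CPM, overlapping interneurons (134 to 151 CPM), and fell under the 2-fold limit (0.97 to 0.98) without granule cell replicate 1, dentate gyrus replicate 1 or dentate gyrus replicate 2. Choroid plexus markers summed to 35.9 to 39 TPM in granule cells, of which Otx2 alone was at 35.8 TPM, and to 1.39 to 15.1 TPM in layer V, 106 to 245 TPM in dentate gyrus and 172 to 285 TPM in interneurons. Of these 5 genes 4 were lower, with Ttr, a transcript abundant in choroid plexus, at 0.0891 to 0.811 CPM in granule cells and 0.223 to 114 CPM in the forebrain, where the libraries overlapped. Oligodendrocyte, microglial and vascular markers were thus lower in granule cell libraries, and 892 of the 3740 lower genes (23.9%) were at least 4-fold higher in the series' astrocytes or microglia than in the forebrain mean, as were 305 of the 1500 higher genes (20.3%) and 14.8% of all genes. Their part in the calls was not tested.

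Neurons of the cerebellum other than granule cells were also considered. Markers of inhibitory interneurons summed to 6.63 to 8.46 TPM in granule cells, and markers of Golgi and molecular layer interneurons to 18.7 to 20.8 TPM. Of 8 Golgi and molecular layer markers 6 were lower (75%) and 1 higher (12.5%), against 29.8% and 15.5% of all genes. Slc32a1, the vesicular GABA transporter, was at 1.34 to 1.75 CPM and Gad2 at 2.25 to 2.75 CPM. The higher marker was Slc6a5, a glycine transporter, which was higher than in each type at 0.487 to 0.713 CPM against 0.052 to 0.197 CPM. Purkinje cell markers summed to 158 to 167 TPM in granule cells and 186 to 722 TPM in the forebrain libraries. Of these 8 genes 2 were lower (25%) and 5 higher (62.5%), against 29.8% and 15.5% of all genes. The lower genes were Calb1 (calbindin, -3.10) and Itpr1 (-1.72). Among the higher ones Pcp2 stood at 15.1 TPM in granule cells and 0.0123 to 0.138 TPM in the forebrain types, and Car8 at 22.3 to 23.6 CPM against 0.338 to 8.47 CPM. Unipolar brush cell markers summed to 1976 to 2047 TPM, of which Calb2 alone was at 1946 TPM; Eomes was at 36.5 TPM and Otx2 at 35.8 TPM, and Lmx1a was at 0.0335 TPM and not tested. Calretinin is also known in granule cells themselves.

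**Figure D5:**
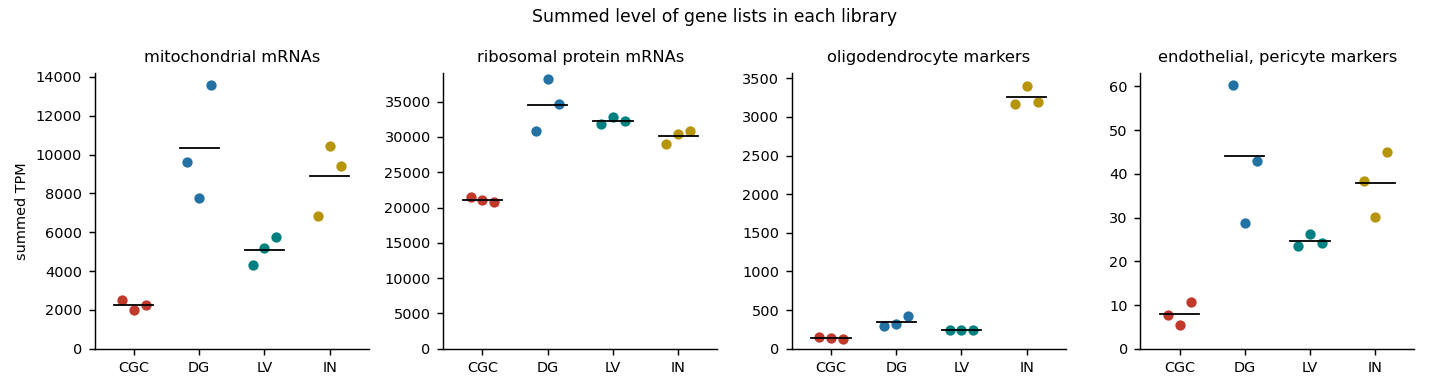
Summed TPM of 4 gene lists in each of the 3 libraries of cerebellar granule cells (CGC), dentate gyrus granule cells (DG), layer V cortical neurons (LV) and inhibitory interneurons (IN); points are libraries, lines are means and each axis starts at 0. The granule cell libraries are lowest for all 4 lists, and oligodendrocyte markers reach 3169 to 3401 TPM in interneurons.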

How the data were processed

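RiboTag mRNA was sequenced as paired reads of 100 bases from stranded libraries. After adapter removal (cutadapt 3.5), the authors ran kallisto 0.46.2 on Gencode M24 transcripts (GRCm38). They deposited estimated counts and TPM for each transcript. Here both were summed to 55385 genes, and estimated counts were rounded to whole numbers. Gene positions came from GENCODE M21 on the same build (55144 genes matched). The labels call the replicates biological.

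Genes were tested with edgeR 4.0.16 (limma 3.58.1, R 4.3.3): filterByExpr, TMM scaling and the quasi-likelihood test over the 12 libraries with cell type as the factor, Benjamini-Hochberg adjustment over 18587 genes, and a call at adjusted p of at most 0.05 and a difference of at least 2-fold. Granule cells were compared with the mean of the 3 forebrain log2 levels and with each type. CPM uses TMM-scaled totals. Errors of log2 differences approximate standard errors: each is the size of the difference divided by the square root of its F statistic. Where a group held few counts they can be smaller than counting error alone. Gabra6, with 55 forebrain counts, is an example (ratio 29100, 95% Poisson interval 22400 to 38700). Mitochondrial shares were tested with an exact permutation test (scipy 1.17.1). Counting intervals are 95% Poisson intervals and cover counting error only; the floor was 3 counts over the group. On simulated data (17929 genes), 97 of 100 genes changed by 1.5 on the log2 scale and 99 of 100 changed by 3 were called, with 2 of 17729 unchanged genes. The 200 changed genes were raised and lowered in equal number, and the forebrain types did not differ. In the real data many more genes were called, more of them lower, so the simulation does not give the error rate of the reported calls.

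Genes were named by a rule: the 12 largest differences in each direction among coding genes called against each type whose libraries did not overlap and whose higher group reached 50 CPM, the 6 most abundant such genes in each direction, and up to 4 per gene list and direction reaching 10 CPM. Members outside this rule that complete small families or marker lists (such as Gabra4, Calb1, Slc6a5, Gria3, Camk2b, Smo and the nuclear factor I genes) were added after their values were seen. A few genes are not reported here. The members and the 35 gene lists were chosen with earlier results of these data known. Promoters are RefSeq windows. The 10 remaining libraries were used only for the glial comparison, the batch alternatives and a label check.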

Additional observations from a re-analysis of the deposited data

Results flagged for a closer look

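Xist, the transcript of the inactive X chromosome, was at 12.3 CPM in the repeat sequencing of layer V replicate 1 in batch 2, a library labelled male that did not enter the comparison. The Y-linked gene Ddx3y was at 0.04 CPM there. The 12 other libraries labelled male held at most 0.17 CPM of Xist and at least 27.06 CPM of Ddx3y. The batch 1 library of the same replicate, which is labelled female and did enter the comparison, held 12.86 CPM of Xist. The value stood out because it was measured outside the comparison and went against the label.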

How the results depend on the processing

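The counts of called genes stayed within 1.5 times their values under 24 of 25 alternatives. The exception was the stricter low-count filter (at least 1 CPM in 9 libraries), which left 12394 genes to test and called 1672 higher and 2593 lower than the forebrain mean and 753 higher and 1852 lower than in each type; a gene present only in the 3 granule cell libraries cannot pass this filter, and the median log2 difference of the same genes shifted by -0.12. Leaving out each library in turn gave 2915 to 2971 higher and 5546 to 5702 lower genes against the mean, and 1475 to 1544 and 3613 to 3785 against each type. Without the interneurons, the only batch 2 libraries used, 3170 were higher and 5153 lower than the mean. With DESeq2 1.42.0 they were 2930 and 5487. A fit with the replicate number as a block gave 2881 higher and 5536 lower genes against the mean and 1500 and 3721 against each type; same-numbered libraries of different types correlated in their deviations at -0.05 to 0.113, so the numbers were not taken as pairs. Of 4800 checks of 193 named genes, 4777 kept direction and call. Bdnf reversed without the interneurons (-0.686), where Neurod2, Cacna1e, Hcn2, Nxph3 and Btg2 were also no longer called. The other lost calls were of Nxph3, Aldoc, Ascc3, Rps19, Bdnf, Eprs and Hcn2, whose log2 differences were 1.05 to 1.12 in size. Of 1750 checks of list counts, 31 moved; hindbrain transcription factors called higher numbered 8 under the stricter filter. The difference in mitochondrial share ranged from -0.633 to -0.517 percentage points as single libraries were left out (nominal p 0.0061 to 0.036, exact permutation tests that pool the forebrain types). DESeq2 gave no adjusted p for Calb2 and Eomes. Depth limited ratios where a group held few counts, as for Rtn4rl2 with 1 count in granule cells.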
